A study of Mus musculus with 16 samples.

Results

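The 10 genes described here encode the T cell antigen receptor, its coreceptors and the kinase bound to them, and they are 10 of the 55356 gene rows kept from the deposited count table. They were chosen by name: Cd3d, Cd3e and Cd3g, Trac, Trbc1 and Trbc2, Cd4, Cd8a and Cd8b1, and Lck. They were measured in 16 libraries from frozen sections of brachiocephalic arteries, which leave the aortic arch and are prone to plaque, with 1 female mouse per library and 4 mice in each of 4 groups. The groups were Apoe-/-Mif-/- mice after 42 weeks on a Western-type diet, Apoe-/- mice after 42 weeks, Apoe-/-Mif-/- mice after 24 weeks and Apoe-/- mice after 24 weeks, and the diet began at 6 weeks of age in all of them. All mice lacked Apoe, an apolipoprotein whose loss raises plasma cholesterol, so no group was free of the stimulus for plaque formation. Mif encodes macrophage migration inhibitory factor, a chemokine-like cytokine. The RNA came from whole vessel sections pooled per mouse, so fewer T cells and less RNA per T cell cannot be told apart.

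The alpha and beta chains of the receptor, whose constant regions are encoded by Trac and by Trbc1 or Trbc2, recognise peptide on major histocompatibility molecules but have no signalling tail of their own. The CD3 chains delta, epsilon and gamma pair with them and carry the signal into the cell, and a receptor without its CD3 partners does not reach the surface. CD4, or a dimer of CD8 alpha and CD8 beta, brings LCK to the engaged receptor, where it phosphorylates the CD3 chains. T cells are known constituents of atherosclerotic plaques and of the adventitia around them, and thymocytes carry the same genes at high levels.

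The 3 CD3 genes lie together on chromosome 9, and Cd3d and Cd3g stand head to head with 1355 bases between their starts in the RefSeq promoter table (build GRCm38.p6). Their promoters are shown because Cd3d and Cd3g, neighbours that T cells use together, were high in different libraries here, 1 library excepted. Lck has 2 starts in that table, 15269 bases apart, both shown because a count per gene cannot separate their transcripts. Each sequence runs 5′ to 3′ from 250 bases before the start to 50 after it, on the same build. Capitals mark matches on either strand to 4 searched motifs. The RUNX motif was searched as TGTGGT. The E box of E proteins was searched as CAGGTG, or with its other centre as CAGCTG. The ETS motif was searched as CAGGAA, and the last motif, that of the basal promoter, as TATAAA. No 2 matches overlapped.
Cd3g promoter (chr9:44980382-44980681, minus strand): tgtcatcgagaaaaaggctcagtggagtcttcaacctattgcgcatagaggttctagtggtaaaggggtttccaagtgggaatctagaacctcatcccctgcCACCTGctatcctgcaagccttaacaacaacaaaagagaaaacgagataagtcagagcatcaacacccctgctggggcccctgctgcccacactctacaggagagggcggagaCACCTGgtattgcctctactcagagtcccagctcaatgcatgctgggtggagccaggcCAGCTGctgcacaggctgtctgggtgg
Cd3d promoter (chr9:44981536-44981835, plus strand): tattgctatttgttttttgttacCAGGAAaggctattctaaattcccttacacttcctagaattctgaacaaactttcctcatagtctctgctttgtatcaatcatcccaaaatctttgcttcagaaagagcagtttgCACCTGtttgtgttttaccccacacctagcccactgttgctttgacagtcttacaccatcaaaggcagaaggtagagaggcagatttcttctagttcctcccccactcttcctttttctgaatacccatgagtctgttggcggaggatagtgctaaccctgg
Cd3e promoter (chr9:45009562-45009861, minus strand): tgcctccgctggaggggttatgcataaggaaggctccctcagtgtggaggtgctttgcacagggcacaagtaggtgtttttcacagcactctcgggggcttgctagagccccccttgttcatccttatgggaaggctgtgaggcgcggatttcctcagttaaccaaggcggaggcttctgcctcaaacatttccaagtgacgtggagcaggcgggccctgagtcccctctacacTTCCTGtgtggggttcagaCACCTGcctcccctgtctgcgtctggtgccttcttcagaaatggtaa
Lck upstream promoter (chr4:129573592-129573891, minus strand): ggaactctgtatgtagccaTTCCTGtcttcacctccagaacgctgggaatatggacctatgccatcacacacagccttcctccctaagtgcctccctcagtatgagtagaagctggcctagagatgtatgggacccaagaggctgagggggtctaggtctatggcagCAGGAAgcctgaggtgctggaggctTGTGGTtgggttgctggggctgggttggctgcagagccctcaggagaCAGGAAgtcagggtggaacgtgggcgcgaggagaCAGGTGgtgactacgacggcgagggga
Lck downstream promoter (chr4:129558323-129558622, minus strand): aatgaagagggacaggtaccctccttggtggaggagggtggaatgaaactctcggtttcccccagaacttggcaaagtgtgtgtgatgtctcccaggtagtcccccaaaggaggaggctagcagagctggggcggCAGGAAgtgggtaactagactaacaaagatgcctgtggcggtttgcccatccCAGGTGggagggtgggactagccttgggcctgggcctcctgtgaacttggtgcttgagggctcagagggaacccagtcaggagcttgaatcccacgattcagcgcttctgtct
The E box letters were found in all 5 windows, with 3 matches in Cd3g and 1 in each of the others, and 32.9% of all 32851 promoters of that length hold them. The ETS letters matched 1 time in Cd3d, in Cd3e and in the downstream Lck window and 3 times in the upstream Lck window, against 30.6% of all promoters with a match. The RUNX letters were found once, in the upstream Lck window, and 16.8% of promoters hold them. TATAAA was in none of the 5, and 13.6% of promoters hold it. The table also has a promoter for Cd8a, so that 5 of the 10 genes matched it. Cd4, Cd8b1, Trac, Trbc1 and Trbc2 are named only.

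Total counts ran between 964622 and 3586084 in Apoe-/-Mif-/- libraries at 42 weeks, 378066 and 4586278 in Apoe-/- libraries at 42 weeks, 1099838 and 4383784 in Apoe-/-Mif-/- libraries at 24 weeks, and 2163720 and 8649518 in Apoe-/- libraries at 24 weeks. 1 library stood apart from the rest for the receptor genes: Apoe-/- 24-week library 4. The 10 genes summed to 5447 CPM (read counts scaled to the library's total and its TMM factor) in that library, against 5.40 to 800.8 CPM, median 134.6, in the other 15. They took 0.654% of its counts (exact Clopper-Pearson 95% interval 0.644% to 0.663%, counting error only, since the reads carry no molecular identifiers). The titles carry a code with the letter C for the 4 Apoe-/-Mif-/- 24-week libraries and the letter B for the other 12. These letters were read here as plate rows, which the titles do not state. Row and group therefore cannot be told apart in the comparisons that involve those 4. In every library 6 to 8 of 8 artery genes (smooth muscle, endothelial and matrix) and 8 to 10 of 10 macrophage genes were at 20 counts or more, but their levels varied. The 8 artery genes summed to 5127 to 29890 CPM in Apoe-/-Mif-/- libraries at 42 weeks, 7354 to 20160 in Apoe-/- libraries at 42 weeks, 10360 to 26640 in Apoe-/-Mif-/- libraries at 24 weeks and 3212 to 19500 in Apoe-/- libraries at 24 weeks. The macrophage genes summed to 27700 to 46370, 24390 to 50110, 21530 to 49290 and 5707 to 52450 CPM in the same 4 groups. Apoe-/- 24-week library 4 was low in both lists, at 3868 CPM of artery genes and 8706 CPM of macrophage genes, as was library 1 of that group. The 3 fat genes Adipoq, Plin1 and Ucp1 summed to 11.49 to 3457 CPM in Apoe-/-Mif-/- libraries at 42 weeks, 20.7 to 437.9 in Apoe-/- libraries at 42 weeks, 1.31 to 35.9 in Apoe-/-Mif-/- libraries at 24 weeks and 8.61 to 4828 in Apoe-/- libraries at 24 weeks. The highest sums were in Apoe-/- 24-week library 1, Apoe-/-Mif-/- 42-week library 2 (3457 CPM) and Apoe-/- 24-week library 4 (1974 CPM). EdgeR called 1 of the 3 fat genes lower for Mif deletion at 24 weeks, 1 higher for 42 against 24 weeks in Apoe-/-Mif-/- mice and 2 in the interaction. Of all genes tested it called 0.047%, 0.122% and 0.686% in the same order. The part of tissue make-up in the receptor results was not tested.

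A read of each receptor gene was found in nearly every library, but a strong signal only in a few. Of the 160 values, 12 were 0, 100 were between 1 and 19 counts and 48 were at 20 counts or more. All 10 values of Apoe-/- 24-week library 4 were among the 48, and 38 of the 150 values in the other 15 libraries. Cd3d, Cd8b1, Trbc2 and Lck had at least 1 count in 16 libraries, Cd4 in 15, Cd3g, Cd8a, Trac and Trbc1 in 14 and Cd3e in 13. At 20 counts or more the order was different: Trbc1 and Trbc2 reached it in 8 libraries each, Cd8b1 in 6, Cd3d and Lck in 5, Cd3e and Trac in 4, Cd4 and Cd8a in 3 and Cd3g in 2. 93 nonzero values were below 1% of the gene's highest value in the table. The origin of these small counts was not tested. A value of 0 allows up to 0.684 to 7.94 CPM before TMM scaling, by the depth of the library.

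**Figure D1:**
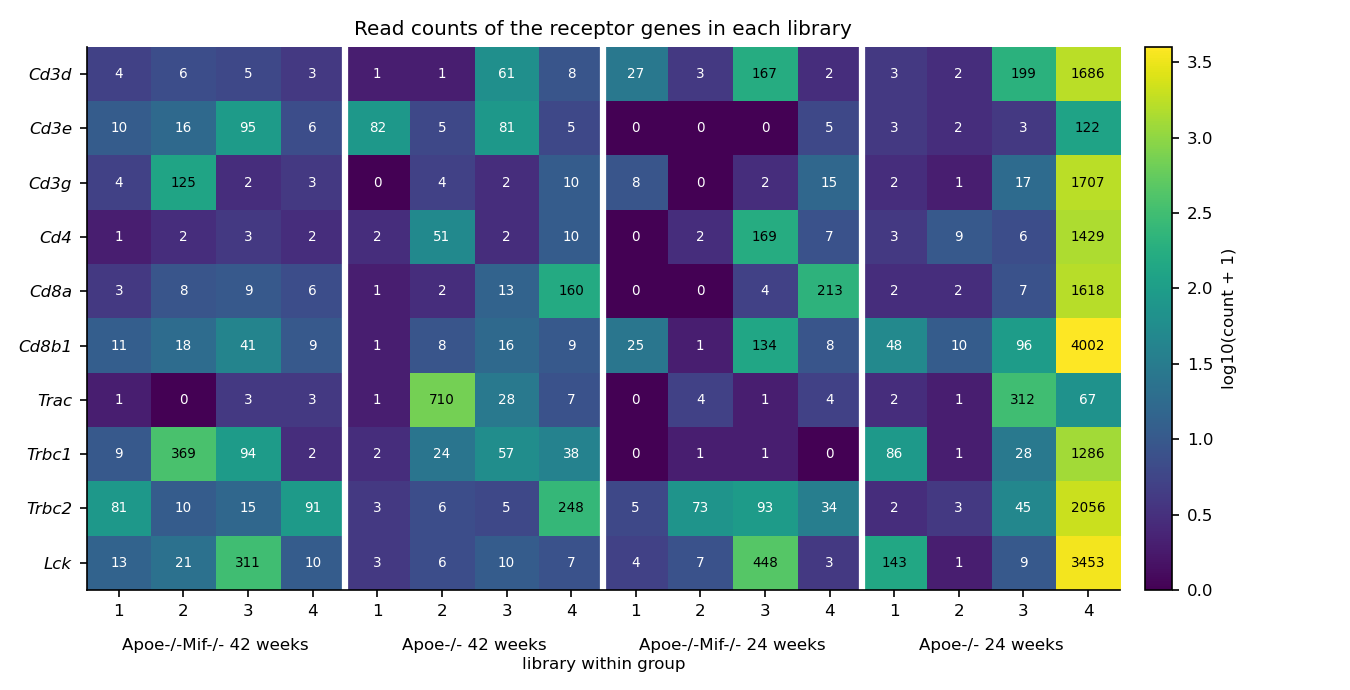
Read counts of the 10 receptor genes (rows) in the 16 libraries (columns, numbered within each group). Colour is log10(count + 1). Library 4 of the Apoe-/- 24-week group holds all 10 genes at 67 to 4002 counts, while the other columns have isolated bright cells of up to 710 counts.

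Most of a receptor gene's signal lay in 1 library. The library with the highest CPM held a median of 73.0% of a receptor gene's CPM summed over all 16 libraries, against 32.2% over the 10634 genes that passed the filter on low counts. That share was over 50% for 9 of the 10 genes, against 18.7% of all genes passing the filter. For 7 of the 10 the top library was Apoe-/- 24-week library 4, which was the top library of 7.06% of all genes passing the filter. The exceptions were Cd3e, with 58.7% in Apoe-/- 42-week library 1, Trac, with 73.5% in library 2 of that group, and Trbc1, with 49.2% in Apoe-/-Mif-/- 42-week library 2.

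**Figure D2:**
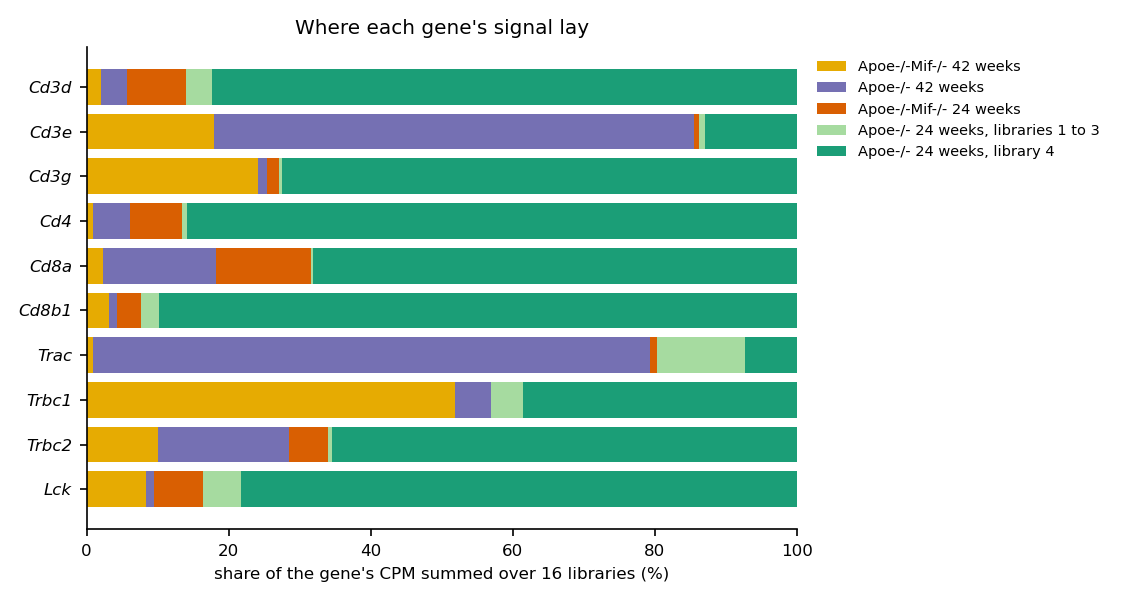
Share of each gene's CPM, summed over 16 libraries, that fell in each group, with library 4 of the Apoe-/- 24-week group drawn apart. That library holds 65.4% to 89.7% of Cd3d, Cd3g, Cd4, Cd8a, Cd8b1, Trbc2 and Lck, but 13.0% of Cd3e, 7.33% of Trac and 38.5% of Trbc1.

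The constant regions of the receptor chains were found in unequal patterns. Trac, the constant region of the alpha chain, had 1, 0, 3 and 3 counts in Apoe-/-Mif-/- libraries at 42 weeks, 1, 710, 28 and 7 in Apoe-/- libraries at 42 weeks, 0, 4, 1 and 4 in Apoe-/-Mif-/- libraries at 24 weeks and 2, 1, 312 and 67 in Apoe-/- libraries at 24 weeks. It was at 20 counts or more in 4 libraries, all from Apoe-/- mice, and at 4 counts or fewer in all 8 Apoe-/-Mif-/- libraries. In counts the ranges of the genotypes overlapped at both times.

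The beta chain has 2 constant region genes, of which a given receptor uses 1. Trbc1 had 9, 369, 94 and 2 counts in Apoe-/-Mif-/- libraries at 42 weeks, 2, 24, 57 and 38 in Apoe-/- libraries at 42 weeks, 0, 1, 1 and 0 in Apoe-/-Mif-/- libraries at 24 weeks and 86, 1, 28 and 1286 in Apoe-/- libraries at 24 weeks. Trbc2 had 81, 10, 15 and 91 counts in Apoe-/-Mif-/- libraries at 42 weeks, 3, 6, 5 and 248 in Apoe-/- libraries at 42 weeks, 5, 73, 93 and 34 in Apoe-/-Mif-/- libraries at 24 weeks and 2, 3, 45 and 2056 in Apoe-/- libraries at 24 weeks. Trbc1 was at 0 or 1 count in the Apoe-/-Mif-/- libraries at 24 weeks, while Trbc2 was at 34 to 93 counts in 3 of those 4. The 2 genes also parted within single libraries: Apoe-/-Mif-/- 42-week library 2 had 369 Trbc1 counts and 10 Trbc2 counts, and library 4 of the same group had 2 and 91. The genes share sequence. Of the 100-base windows of their annotated transcripts (GENCODE M21), 28.2% of those in Trbc1 and 30.9% of those in Trbc2 occur in both, so reads could be split between them or dropped by the counting program, which is not given in the sources used here.

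The variable, diversity and joining segments of the alpha, beta, gamma and delta chains had 262 rows in the table. Library 4 of the Apoe-/- mice at 24 weeks held 48 of them with 1043 counts in all, spread so that the highest, Trbv15, had 80. Beta segments gave 655 of these counts, alpha segments 261, gamma segments 112 and delta segments 15. Library 3 of that group held 14 rows with 142 counts, of which 114 were from Trav13-4-dv7. In the other 14 libraries 0 to 8 rows had a count, and single segments made much of the larger sums, such as Trbv23 with 293 of 295 counts in Apoe-/-Mif-/- 42-week library 4 and Traj60 with 88 of 150 in library 2 of that group.

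The 3 CD3 chains were strong in different libraries. Cd3d, the delta chain, had 4, 6, 5 and 3 counts in Apoe-/-Mif-/- libraries at 42 weeks, 1, 1, 61 and 8 in Apoe-/- libraries at 42 weeks, 27, 3, 167 and 2 in Apoe-/-Mif-/- libraries at 24 weeks and 3, 2, 199 and 1686 in Apoe-/- libraries at 24 weeks. Cd3g, the gamma chain, had 4, 125, 2 and 3 counts in Apoe-/-Mif-/- libraries at 42 weeks, 0, 4, 2 and 10 in Apoe-/- libraries at 42 weeks, 8, 0, 2 and 15 in Apoe-/-Mif-/- libraries at 24 weeks and 2, 1, 17 and 1707 in Apoe-/- libraries at 24 weeks. Cd3d and Cd3g, whose promoters face each other, were both at 20 counts or more in a single library, Apoe-/- 24-week library 4.

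Cd3e, the epsilon chain, which binds both other CD3 chains, was the receptor gene with the fewest counts, 435 in all. It had 10, 16, 95 and 6 counts in Apoe-/-Mif-/- libraries at 42 weeks, 82, 5, 81 and 5 in Apoe-/- libraries at 42 weeks, 0, 0, 0 and 5 in Apoe-/-Mif-/- libraries at 24 weeks and 3, 2, 3 and 122 in Apoe-/- libraries at 24 weeks. The Apoe-/-Mif-/- libraries at 42 weeks, at 2.58 to 22.8 CPM, did not overlap those of the same genotype at 24 weeks, at 0 to 2.31 CPM. The nearest values were 6 counts of 3375979 at 42 weeks and 5 of 2609347 at 24 weeks. Their TMM factors were 0.702 and 0.849, and the gap in CPM depends on that scaling. The share of all genes without such overlap is not given here. In Apoe-/- 24-week library 4 Cd3e reached 9.35 CPM per kilobase of annotated exon, against 290 for Cd3d and 163 for Cd3g on the same scale.

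Of the coreceptor genes, Cd8b1 and Cd4 had the highest shares in 1 library of all 10 genes, 89.7% and 85.9%. Cd4, the coreceptor of helper T cells, which macrophages and dendritic cells can also carry, had 1, 2, 3 and 2 counts in Apoe-/-Mif-/- libraries at 42 weeks, 2, 51, 2 and 10 in Apoe-/- libraries at 42 weeks, 0, 2, 169 and 7 in Apoe-/-Mif-/- libraries at 24 weeks and 3, 9, 6 and 1429 in Apoe-/- libraries at 24 weeks. Cd8a, the CD8 alpha chain, had 3, 8, 9 and 6 counts in Apoe-/-Mif-/- libraries at 42 weeks, 1, 2, 13 and 160 in Apoe-/- libraries at 42 weeks, 0, 0, 4 and 213 in Apoe-/-Mif-/- libraries at 24 weeks and 2, 2, 7 and 1618 in Apoe-/- libraries at 24 weeks. Cd8b1, the CD8 beta chain, had 11, 18, 41 and 9 counts in Apoe-/-Mif-/- libraries at 42 weeks, 1, 8, 16 and 9 in Apoe-/- libraries at 42 weeks, 25, 1, 134 and 8 in Apoe-/-Mif-/- libraries at 24 weeks and 48, 10, 96 and 4002 in Apoe-/- libraries at 24 weeks. Cd4 and Cd8a were each strong in 3 libraries, and the only library with both was Apoe-/- 24-week library 4. It was also the only library in which Cd8a and Cd8b1, the chains of the CD8 heterodimer, both reached 20 counts. That cut was not scaled to depth. With 8 and 18 counts, Apoe-/-Mif-/- 42-week library 2, a shallow library, had 11.1 CPM of Cd8a and 25.1 CPM of Cd8b1.

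Lck, the kinase that CD4 and CD8 hold, had 13, 21, 311 and 10 counts in Apoe-/-Mif-/- libraries at 42 weeks, 3, 6, 10 and 7 in Apoe-/- libraries at 42 weeks, 4, 7, 448 and 3 in Apoe-/-Mif-/- libraries at 24 weeks and 143, 1, 9 and 3453 in Apoe-/- libraries at 24 weeks. In each of 3 groups 1 or 2 libraries were strong, and the 4 Apoe-/- libraries at 42 weeks all stayed at 10 counts or fewer.

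**Figure D3:**
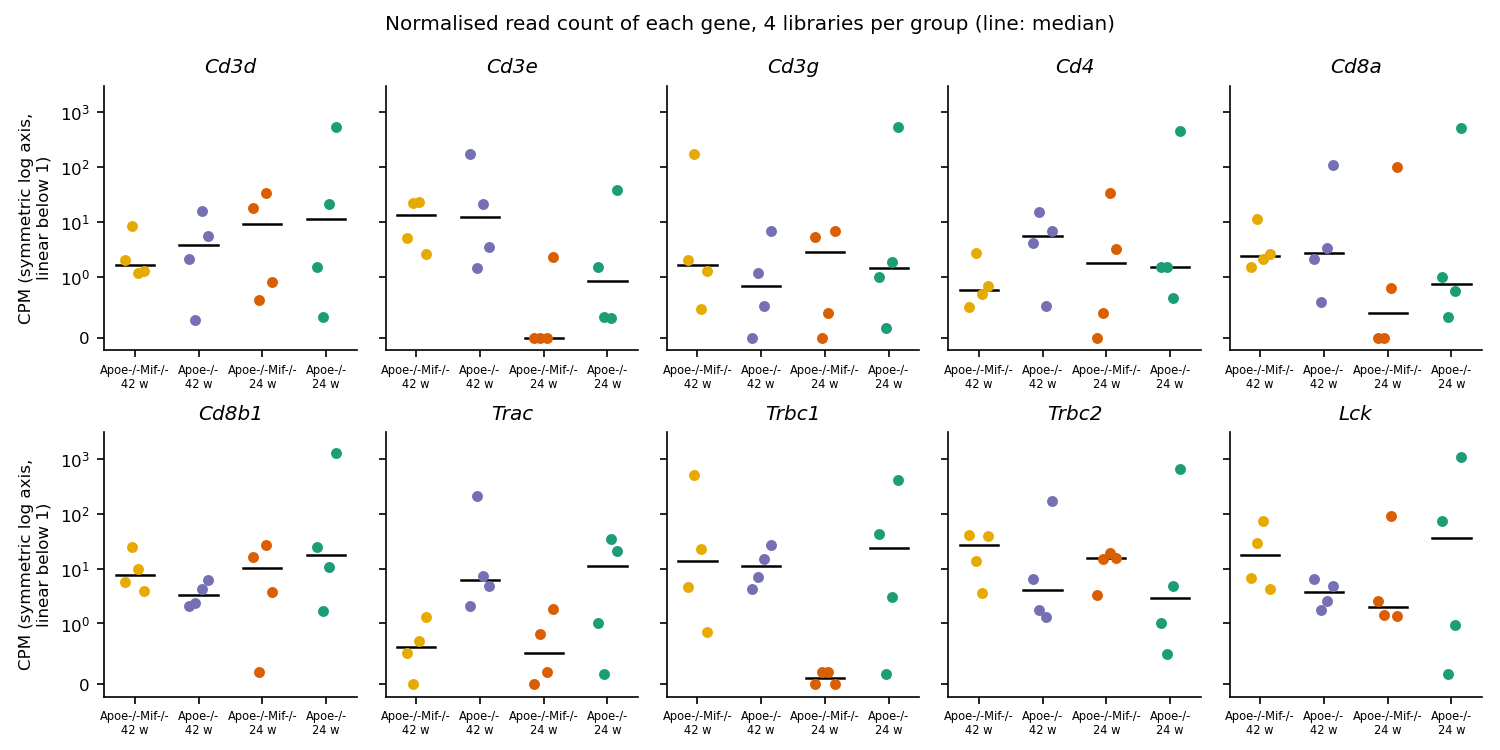
CPM of each receptor gene on a symmetric log axis that is linear below 1, with 1 point per library, 4 per group, and the group median as a line. The highest point is the Apoe-/- 24-week library 4 in all panels but Cd3e, Trac and Trbc1, and the groups overlap in most panels.

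Counted over libraries at a cut of 20 counts, the parts of the complex seldom came together. The cut was not scaled to depth, so the tallies depend in part on depth. Apoe-/-Mif-/- 42-week library 2 had Cd3e at 22.3 CPM from 16 counts, below the cut. Apoe-/- 24-week library 3 had Trbc1 at 3.05 CPM from 28 counts, above it. All 3 CD3 chains reached 20 counts in 1 library, 2 of them in 1 library, a single chain in 6 and none in 8. A beta constant region gene reached it in 13 libraries and Trac in 4, each of which also had a beta gene. Trac, a beta gene and a CD3 chain were found together in 3 libraries. In the 15 libraries other than Apoe-/- 24-week library 4, a median of 3 of the 10 genes, and 0 to 5, reached 20 counts. The 45 pairs of genes had a median Spearman rho of CPM of 0.31 over 16 libraries and 0.19 over the 15, where single pairs lay between -0.34 and 0.73. These correlations are descriptions, since the points share library depth.

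By group, 9 of 40 values were at 20 counts or more in Apoe-/-Mif-/- libraries at 42 weeks, 11 in Apoe-/- libraries at 42 weeks, 10 in Apoe-/-Mif-/- libraries at 24 weeks and 18 in Apoe-/- libraries at 24 weeks. Without library 4 that last figure was 8 of 30. These tallies were not scaled to depth either. The summed CPM of the 10 genes averaged 266.9 ± 357.7 in Apoe-/-Mif-/- libraries at 42 weeks, 216.3 ± 115.1 in Apoe-/- libraries at 42 weeks, 101.3 ± 86.1 in Apoe-/-Mif-/- libraries at 24 weeks and 1420 ± 2685 in Apoe-/- libraries at 24 weeks (SD, n = 4 each). Without library 4 the mean of the Apoe-/- libraries at 24 weeks was 77.5 ± 71.5 (SD, n = 3). The SD was larger than the mean in 2 of the 4 groups.

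The first comparison asked what Mif deletion did at 24 weeks, with edgeR's quasi-likelihood test on the counts and Benjamini-Hochberg adjustment over 10634 genes, called at an adjusted p under 0.05. All 10 receptor genes passed the low-count filter and all 10 had a negative log2 fold change, Apoe-/-Mif-/- over Apoe-/-, with a median of -3.87 and a range of -9.37 to -2.36, beside a median of -0.18 over all genes. None of the 10 was called, where 0.047% of all genes were. 7 of the 10 had an unadjusted p under 0.05, as did 780 genes, 7.33% of all. DESeq2 called none of the 10, where it called 1.97% of all genes, but it gave no adjusted p for Trbc1 and Cd8b1. Trbc1 had the smallest p, with a log2 fold change of -9.37 ± 2.21 (SE, adjusted p = 0.105). With 2 counts in all 4 Apoe-/-Mif-/- libraries and 1401 in the Apoe-/- libraries, its fitted fold depends on the model's prior count, and the ratio of pooled counts over pooled library totals, without TMM scaling, Apoe-/- over Apoe-/-Mif-/-, was 472 (95% interval 130 to 3900, counting error only). Cd8b1 came second at -4.76 ± 1.57 (adjusted p = 0.304). Without library 4 of the Apoe-/- mice, 5 of the 10 log2 fold changes were positive and 5 negative, with a median of 0.37. Only 3 then had an unadjusted p under 0.05: Trac and Trbc1 with a negative value and Cd8a with a positive one, 5.10. Cd8b1 was then at -0.02 and Trbc1 at -6.53 (adjusted p = 0.320). Trbc1 was called without Apoe-/- library 2 of that time (adjusted p = 0.0331) or library 3 (adjusted p = 0.0467), and without the low-count filter (adjusted p = 0.00149), where 0.424% of all genes were called.

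At 42 weeks both groups carried the title letter read as plate row B. The 10 genes were split, with 4 higher and 6 lower in Apoe-/-Mif-/- than in Apoe-/- libraries, a median log2 fold change of -0.95 and a range of -6.27 to 4.28, beside a median of 0.09 over all genes. None was called by edgeR, where 0% of all genes were, and 1835 genes (17.3%) and 3 of the 10 had an unadjusted p under 0.05. Trac had a log2 fold change of -6.27 ± 2.03 (SE, adjusted p = 0.176). Its 4 Apoe-/-Mif-/- libraries were at 0 to 1.29 CPM and its 4 Apoe-/- libraries at 2.11 to 209.8 CPM, so on this scale the groups did not overlap, with the lowest Apoe-/- value, 2.11 CPM, from 1 count in the shallowest library. What share of all genes lacked overlap in this comparison is not given here. Apoe-/- 42-week library 2 held 710 of the 746 Trac counts of that group, and without it the value was -2.72 (adjusted p = 0.460). DESeq2 called Trac (adjusted p = 0.00678) among 902 genes, 8.48% of all, and gave no adjusted p for Cd3g. The log2 fold change of Cd3g was 4.28 ± 2.03 (SE, adjusted p = 0.273), which rested on library 2 of the Apoe-/-Mif-/- mice and was -0.79 without it.

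Time on the diet was compared within each genotype. In Apoe-/- mice, 42 against 24 weeks, 2 of the 10 genes had a positive and 8 a negative log2 fold change, with a median of -3.56 and a range of -6.39 to 2.29, beside a median of -0.12 over all genes. None was called by edgeR, where 0% of all genes were, and 1301 genes (12.2%) and 5 of the 10 had an unadjusted p under 0.05. Cd8b1 had -6.39 ± 1.71 (SE, adjusted p = 0.322) and Lck -6.27 ± 1.89 (adjusted p = 0.322), and DESeq2 called Lck (adjusted p = 0.0130) among 391 genes, 3.68% of all. For Cd8b1 DESeq2 gave no adjusted p. Without library 4 of the 24-week mice the median was 1.67, with 6 positive and 4 negative, and Cd8b1 was at -1.67 and Lck at -2.68. This comparison and the one between genotypes at 24 weeks share the 4 Apoe-/- libraries of 24 weeks.

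In Apoe-/-Mif-/- mice, 42 against 24 weeks, 5 of the 10 were positive and 5 negative, with a median log2 fold change of 0.10 and a range of -3.09 to 9.64, beside a median of 0.12 over all genes. None was called by edgeR, where 0.122% of all genes were, and 1391 genes (13.1%) and 2 of the 10 had an unadjusted p under 0.05. DESeq2 called none of the 10, where it called 5.28% of all genes, but it gave no adjusted p for Trbc1. Trbc1 had a log2 fold change of 9.64 ± 2.23 (SE, adjusted p = 0.0676). It had 474 counts in the libraries of 42 weeks and 2 in those of 24 weeks, a ratio of pooled counts over pooled library totals of 273 (95% interval 75.1 to 2260). Apoe-/-Mif-/- 42-week library 2 held 369 of the 474, and without it the value was 5.79 (adjusted p = 0.215). Trbc1 passed when any of 5 libraries was left out: Apoe-/- 24-week library 2 (adjusted p = 0.0334), library 3 of that group (0.0485), or Apoe-/-Mif-/- 42-week library 1, 3 or 4 (0.0372, 0.0439 and 0.0347). It also passed with size factors (adjusted p = 0.0498), where 0.207% of all genes were called, and without the low-count filter (adjusted p = 0.00043), where 1.52% were. Cd3e had 4.51 ± 2.00 (adjusted p = 0.335), and 8.47 (adjusted p = 0.277) without Apoe-/-Mif-/- 24-week library 4, the only library of its group with a Cd3e count.

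**Figure D4:**
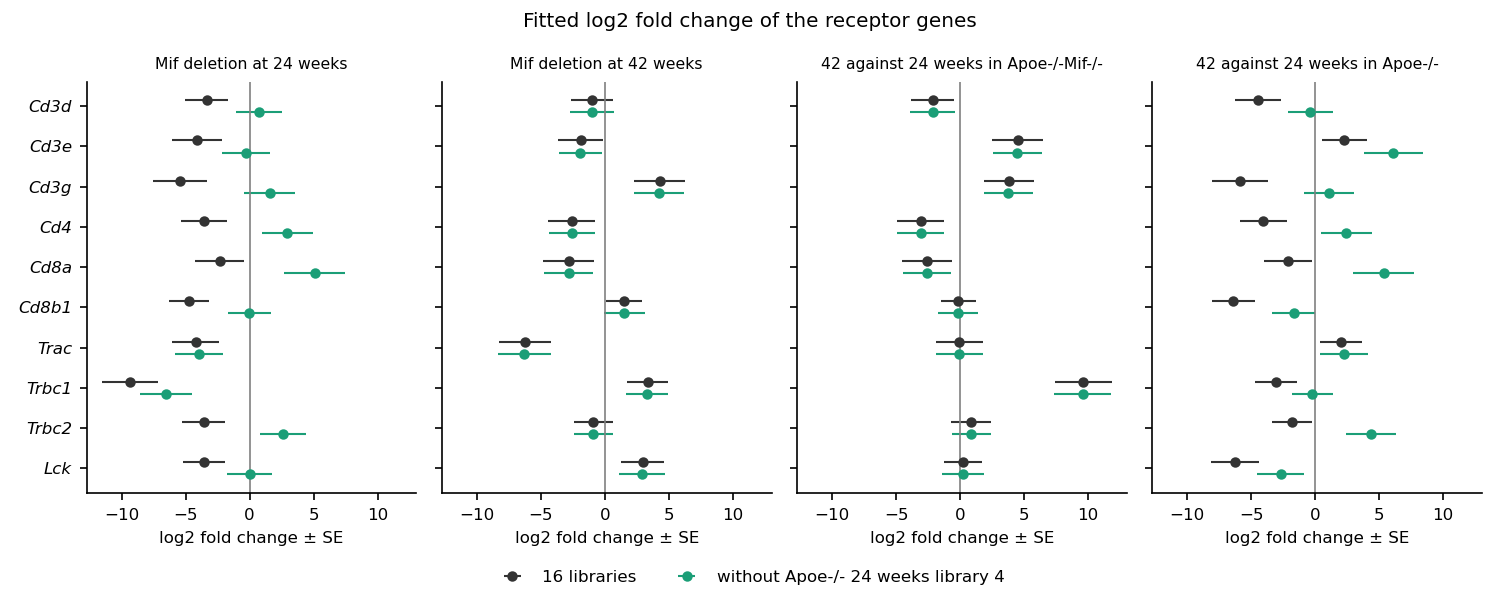
Fitted log2 fold change ± SE of each receptor gene in 4 comparisons, with all 16 libraries (dark) and without library 4 of the Apoe-/- 24-week group (green). The dark points of Mif deletion at 24 weeks all lie left of 0, and 5 of the 10 green points lie right of it.

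The interaction, which asks whether the effect of Mif deletion at 42 weeks differed from that at 24 weeks, held the single receptor gene that edgeR called. That gene was Trbc1, with a difference of log2 fold changes of 12.7 ± 2.73 (SE, adjusted p = 0.0254), and 0.686% of all genes were called. 8 of the 10 genes had a positive value and 2 a negative one, with a median of 2.54 and a range of -2.05 to 12.7, beside a median of 0.26 over all genes. 1512 genes (14.2%) and 4 of the 10 had an unadjusted p under 0.05. Cd3g came second at 9.72 ± 2.92 (adjusted p = 0.108). It was at 2.68 (adjusted p = 0.714) without Apoe-/- 24-week library 4 and at 4.63 (adjusted p = 0.400) without Apoe-/-Mif-/- 42-week library 2, and it was called without the low-count filter (adjusted p = 0.0092), as were 1.54% of all genes. The Trbc1 call held with size factors (adjusted p = 0.0295), where 0.602% of all genes were called, and depended on single libraries. It was lost without any one of 11 libraries (adjusted p between 0.0507 and 0.0791): all 4 Apoe-/-Mif-/- libraries at 24 weeks, all 4 Apoe-/- libraries at 42 weeks, Apoe-/- 24-week libraries 1 and 4, and Apoe-/-Mif-/- 42-week library 2. Without Apoe-/- 24-week library 4 it was 9.82 (adjusted p = 0.0694), and the median of the 10 genes was -1.69. When Trbc1 and Trbc2 were summed as 1 row, the interaction was 5.80 ± 2.03 (adjusted p = 0.177), so that the beta chain as a whole was not called. DESeq2 called Lck (adjusted p = 0.0429) among 543 genes, 5.11% of all, and gave no adjusted p for Trbc1 and Cd3g. The Trbc1 call was also lost with limma on the deposited log2 values (adjusted p = 0.747) and when counts below 1% of a gene's maximum were set to 0 (adjusted p = 0.278).

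Of 33 genes that act with the receptor, among them kinases, adaptors, surface molecules and transcription factors of T cells, 14 passed the filter. EdgeR called none of them in the 4 comparisons between groups, where it called 0% to 0.122% of all genes. In the interaction it called 1, Bcl11b, and 0.686% of all genes. Bcl11b, a transcription factor that T cell identity needs, was named after its value was seen: 14.9 ± 3.29 (SE, adjusted p = 0.0294). It had 1, 145, 52 and 0 counts in Apoe-/-Mif-/- libraries at 42 weeks, 0, 0, 3 and 2 in Apoe-/- libraries at 42 weeks, 0, 0, 0 and 1 in Apoe-/-Mif-/- libraries at 24 weeks and 14, 47, 2 and 561 in Apoe-/- libraries at 24 weeks, so its fitted value depends on groups with 5 counts or fewer. This call, too, was lost without any one of the 11 libraries named for Trbc1 (adjusted p between 0.0536 and 0.0719), with limma (5.13, adjusted p = 0.672) and under the same 1% rule (adjusted p = 0.278). The median log2 fold change of the 14 was -1.99 for Mif deletion at 24 weeks, 1.56 for Mif deletion at 42 weeks, -1.28 for 42 against 24 weeks in Apoe-/- mice, -0.08 for the same in Apoe-/-Mif-/- mice and 4.03 for the interaction. The summed CPM of the 33 ran from 36.6 to 1529 in Apoe-/-Mif-/- libraries at 42 weeks, 137.0 to 1031 in Apoe-/- libraries at 42 weeks, 234.4 to 488.0 in Apoe-/-Mif-/- libraries at 24 weeks and 178.0 to 2765 in Apoe-/- libraries at 24 weeks. In library 4 of the last group 24 of the 33 were at 20 counts or more, against 1 to 10, median 5, in the other 15. Cd247, the zeta chain that completes the receptor, had 532 counts there and 82 in Apoe-/-Mif-/- 24-week library 2, and at most 10 in the other 14 libraries.

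Markers of immature T cells were high in the same library. Of 14 thymocyte genes, 13 were at 20 counts or more in Apoe-/- 24-week library 4, against 0 to 5, median 2, in the other 15. Their summed CPM ran from 11.6 to 415.0 in Apoe-/-Mif-/- libraries at 42 weeks, 35.8 to 92.5 in Apoe-/- libraries at 42 weeks, 10.2 to 41.0 in Apoe-/-Mif-/- libraries at 24 weeks and 23.6 to 2857 in Apoe-/- libraries at 24 weeks, with the maximum in library 4. Rag1, the recombinase that joins receptor segments, had 752 counts in that library and at most 26 elsewhere. Dntt, which adds bases at the joins, had 582 against at most 22, and Ptcra, the pre-T alpha chain, 513 against at most 3. Markers of thymic epithelium did not all follow: Prss16 had 221 counts in that library and at most 1 elsewhere, Foxn1 had 1 there and 671 in library 3 of the same group, and Psmb11 had 0. Of those 10 epithelial genes 4 were at 20 counts or more in library 4, against 0 or 1 in the other 15. Their summed CPM ran from 1.29 to 8.73 in Apoe-/-Mif-/- libraries at 42 weeks, 0 to 7.67 in Apoe-/- libraries at 42 weeks, 0.410 to 15.3 in Apoe-/-Mif-/- libraries at 24 weeks and 4.90 to 107.5 in Apoe-/- libraries at 24 weeks. The part of thymic tissue in the receptor counts of library 4 was not tested.

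**Figure D5:**
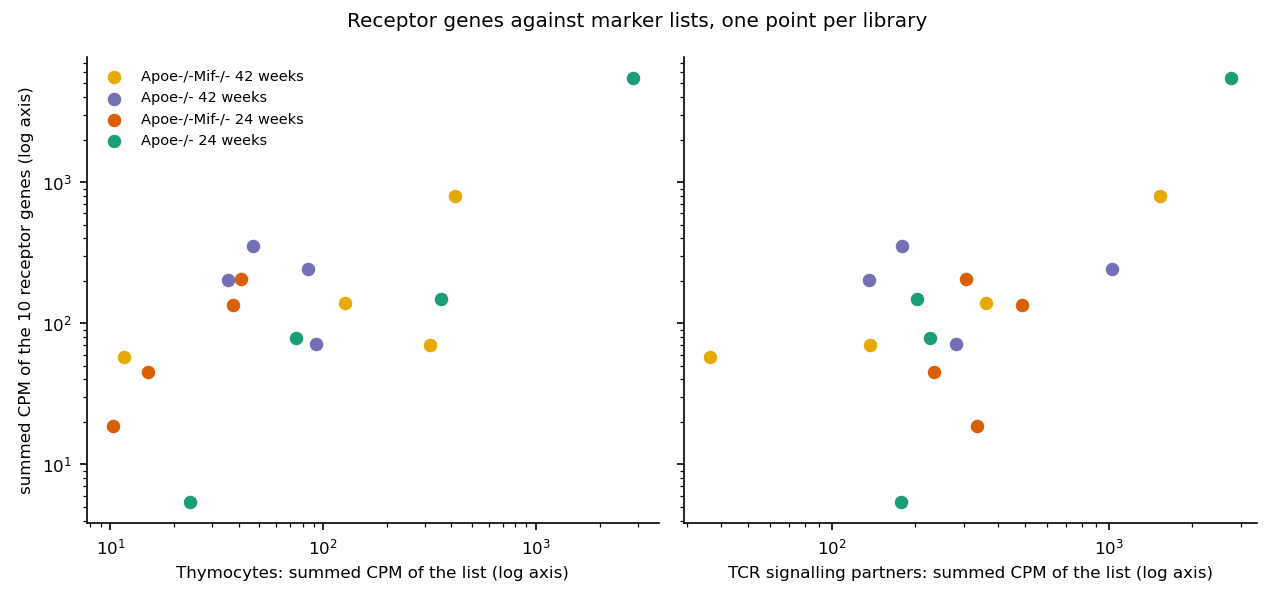
Summed CPM of the 10 receptor genes (vertical, log axis) against the summed CPM of 14 thymocyte genes (left) and 33 genes of receptor signalling (right), with 1 point per library. Library 4 of the Apoe-/- 24-week group lies at the upper right of both panels, at 5447 CPM of receptor genes and 2857 CPM of thymocyte genes.

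Genes of mature T cell functions were mixed. Foxp3 of regulatory T cells, the cytokines Ifng and Il17a, the cytotoxic genes Gzmb and Prf1, and the inhibitory receptor Ctla4 were at 0 in all 16 libraries. Others, named after their values were seen, were strong in some libraries. Nkg7, of cytotoxic granules, had 542 counts in Apoe-/- 42-week library 4 and 340 in Apoe-/- 24-week library 4. The chemokine Ccl5 had 184 in Apoe-/- 42-week library 4. It also had 113, 139 and 119 in Apoe-/-Mif-/- 24-week libraries 1 to 3, and 52 and 85 in Apoe-/- 24-week libraries 2 and 4. Tbx21, a transcription factor of type 1 helper cells, had 130 and 49 in Apoe-/- 42-week libraries 1 and 3. The inhibitory receptor Pdcd1 had 143 counts in Apoe-/-Mif-/- 42-week library 2 and 124 in Apoe-/- 24-week library 3. Lag3, also an inhibitory receptor, had 375 in Apoe-/- 24-week library 3 and 137 in Apoe-/-Mif-/- 24-week library 3. Of 22 effector and regulatory genes 4 passed the filter. EdgeR called none of these 4 in any of the 5 comparisons, where it called 0% to 0.686% of all genes. The summed CPM of the 22, to which widely expressed genes such as Cd44 contribute, ran from 60.1 to 287.7 in Apoe-/-Mif-/- libraries at 42 weeks, 174.6 to 878.9 in Apoe-/- libraries at 42 weeks, 180.2 to 272.9 in Apoe-/-Mif-/- libraries at 24 weeks and 136.6 to 269.1 in Apoe-/- libraries at 24 weeks. Of the gamma delta receptor, the other kind of T cell receptor, Trdc had 65 counts in Apoe-/-Mif-/- 42-week library 3, 106 in Apoe-/-Mif-/- 24-week library 3 and 34 in Apoe-/- 24-week library 4, and at most 1 elsewhere. The gamma constant regions were distributed otherwise. Trgc1 had 60 counts in Apoe-/- 24-week library 4 and at most 1 elsewhere. Trgc2 had 146 there and at most 10 elsewhere, and Trgc3 and Trgc4 were at 0 in every library. The natural killer cell genes Klre1, Klrd1 and Klra8 were at 0 in every library, and the 7 such genes listed summed to at most 3.08 CPM in Apoe-/-Mif-/- libraries at 42 weeks, 1.82 in Apoe-/- libraries at 42 weeks, 1.44 in Apoe-/-Mif-/- libraries at 24 weeks and 16.9 in Apoe-/- libraries at 24 weeks. Of 8 B cell genes Cr2 was at 0 everywhere, and in Apoe-/- 24-week library 4 Fcer2a had 353 counts and Blk 244. Their sum reached 95.9 CPM in Apoe-/-Mif-/- libraries at 42 weeks, 14.8 in Apoe-/- libraries at 42 weeks, 20.7 in Apoe-/-Mif-/- libraries at 24 weeks and 215.1 in Apoe-/- libraries at 24 weeks.

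The genes whose pattern was most like that of the summed receptor genes were ranked by Pearson's r of log2(CPM + 1) over 16 libraries, among 10215 genes. Grap, an adaptor of lymphocytes, came first with r = 0.82 (Spearman's rho 0.70). It was followed by AY036118 (0.77), Atp6v0a2 (0.73), Lat (0.73), Nrxn3 (0.73), Dpep1 (0.72), Brpf3 (0.71), Ighg2c (0.69), Ppfibp2 (0.68) and Endou (0.67). LAT is the membrane adaptor phosphorylated after the receptor is engaged, and Lat had 2297 counts in Apoe-/- 24-week library 4 and at most 548 elsewhere. These values rest in part on that library. Without it r was 0.68 for Grap, 0.59 for Lat and 0.40 for Ighg2c, and 4 of the 10 genes remained among the first 10. The points share library depth and no p is given.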

How the data were processed

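RNA from 16 libraries, 4 mice per group, was amplified by a Smart-seq2 protocol without molecular identifiers or strand and sequenced as 100-base read pairs, per the labels' protocols. Per the submitters' processing notes, the authors used cutadapt 1.18, Trim Galore 0.6.4, FastQC 0.11.5, STAR 2.5.2b and build GRCm39. The counting program and annotation are not given in the sources used here. The deposited table holds whole-number counts per gene symbol. 1 row with a blank name, at most 0.00257% of a library, and 2 reporter rows were left out. A second table holds the authors' variance-stabilised values on a log2 scale.

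The test was edgeR's (version 4.0.16, R 4.3.3) quasi-likelihood F-test on these counts (TMM, filterByExpr with a minimum count of 10 and total of 15, 1 fit over 4 groups), and genes under 0.05 after Benjamini-Hochberg adjustment were called. Alternatives were size factors, no filter, DESeq2 1.42.0, limma 3.58.1 on the deposited log2 values, counts under 1% of a gene's maximum set to 0, and leaving out each library. The genes, marker lists and rules were chosen with earlier results of these data known, and the thresholds of 20 counts and 10 CPM and the summed Trbc row after seeing the counts. In each comparison the 2 receptor genes with the smallest p are given with their statistics. The SE given with an edgeR log2 fold change is its absolute value divided by the square root of the F statistic. This SE is approximate, most of all where a group had few counts. Titles name a separate mouse per library.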

Additional observations from a re-analysis of the deposited data

Results flagged for a closer look

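Within groups of 4 libraries, 23 of the 40 gene and group combinations had a library far from the other 3, by the gap to its nearest neighbour over the range. The rule's rate of about 1 in 20 groups by chance holds for normally distributed values, and these CPM values are sparse and skewed. The share flagged over all genes is not given here, so the 23 cannot be set against it. Of the 23, 9 were in Apoe-/- 24-week library 4: Cd3d at 527 CPM, Cd3e at 38.1, Cd3g at 534, Cd4 at 447, Cd8a at 506, Cd8b1 at 1250, Trbc1 at 402, Trbc2 at 643 and Lck at 1080 CPM. In Apoe-/-Mif-/- 42-week library 2, Cd3d was at 8.36 CPM, Cd3g at 174, Cd4 at 2.79, Cd8a at 11.1 and Trbc1 at 514 CPM. In Apoe-/- mice at 42 weeks, library 1 had Cd3e at 173 CPM, library 2 had Trac at 210 CPM, and library 4 had Cd3g at 6.98, Cd8a at 112 and Trbc2 at 173 CPM. In Apoe-/-Mif-/- mice at 24 weeks, library 3 had Cd4 at 34.3 and Lck at 90.9 CPM, and library 4 had Cd3e at 2.31 and Cd8a at 98.5 CPM. The Cd3d, Cd4 and Cd8a values of Apoe-/-Mif-/- 42-week library 2 stand for 6, 2 and 8 reads in a library of 964622 counts.

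The effect of Mif deletion differed between 42 and 24 weeks by the interaction test of edgeR for Trbc1, by 12.7 on the log2 scale (adjusted p = 0.0254), and for Bcl11b, by 14.9 (adjusted p = 0.0294). Both calls were lost without any one of 11 libraries, with limma on the deposited log2 values and when counts below 1% of a gene's maximum became 0. Trbc1 and Trbc2 summed as 1 row were not called (adjusted p = 0.177). The 4 Apoe-/-Mif-/- libraries at 24 weeks carried another letter in their titles, read as another plate row, which cannot be told apart from their group.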

How the results depend on the processing

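The number of genes called depended on the tool. For Mif deletion at 24 weeks it was 5, against 0 with size factors, 117 without a filter, 210 with DESeq2, and 0 with limma and when values below 1% of a gene's maximum became 0 (the 1% rule). At 42 weeks it was 0, against 150 without a filter and 902 with DESeq2. For 42 against 24 weeks it was 0 in Apoe-/- mice, against 18 without a filter and 391 with DESeq2, and 13 in Apoe-/-Mif-/- mice, against 22 with size factors, 419 without a filter, 562 with DESeq2, and 0 with limma and with the 1% rule. The interaction had 73, against 426 without a filter, 543 with DESeq2, and 0 with limma and with the 1% rule. Leaving out 1 library in turn gave 0 to 21, 0 to 1, 0, 0 to 36 and 0 to 124 in the same order. The cause was not tested. The 11 named fold changes kept their direction and side of the threshold in 179 of 219 alternatives, passed in 13 and lost the call in 26, and 1 reversed: Cd3g for Mif deletion at 42 weeks was -0.79 without Apoe-/-Mif-/- replicate 2 and 5.94 at most without another library. Libraries with a receptor gene numbered 9 to 15 per gene at 3 counts, 2 to 13 under the 1% rule and 2 to 8 at 10 CPM, and 7.28 to 13.0 would be expected at the depth of the shallowest library. No paired analysis was possible because the labels give no replicate numbers and each library is a different mouse.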
